A study of Mus musculus with 12 samples.

Results

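Transcript levels of 40 genes of DNA replication and S phase are described here in T cell lymphomas that arose without TCF-1, in DN3 thymocytes without TCF-1 and in wild-type DN3 thymocytes. The genes were taken from a written list of replication factors, each through an array row with 1 gene symbol in the platform annotation, and the row with the highest mean was used where a gene had several. All 40 were found among the 19938 genes with a row of their own, and all 40 passed the filter on dim signals that left 14953 genes for testing. The 12 Affymetrix Mouse Gene 1.0 ST arrays comprised 6 of lymphoma blasts sorted from the thymus of diseased TCF-1 KO mice aged 12 to 40 weeks, 3 of DN3 thymocytes from TCF-1 KO mice aged 8 to 12 weeks (KO DN3), and 3 of DN3 thymocytes from wild-type mice aged 8 to 12 weeks (WT DN3). All mice were C57/BL6, every lymphoma and every KO DN3 sample shared the loss of TCF-1, and cells were sorted straight into Trizol LS and their RNA amplified with a NuGEN Pico kit. The labels give neither the design of the knockout allele, the relation between the mice, nor the gate for lymphoma blasts. Lymphomas and DN3 cells differed in the age of the mice as well as in malignancy, and age and malignancy cannot be told apart. Values are log2 signals per gene, so a difference of 1 is a 2-fold change of signal, and the small number of arrays limits the precision.

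Replication of the genome is prepared in G1, when the origin recognition complex, Cdc6 and Cdt1 load the Mcm2 to Mcm7 helicase ring onto DNA, and starts when Cdc45 and the GINS complex switch that ring on. Primase and the replicative polymerases then copy the strands behind it, with a sliding clamp and its loader, single-strand binding proteins, a supply of deoxynucleotides and factors that rebuild chromatin. Many of these genes are transcribed under E2F factors that cyclin E and Cdk2 release from the retinoblastoma proteins. In the thymus, DN3 cells rearrange the T cell receptor beta gene largely at rest and divide rapidly once beta-selection has succeeded.

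A list of 7 DN3 markers had a mean log2 level of 7.80 to 8.58 on the lymphoma arrays, 8.38 to 8.68 on the KO DN3 arrays and 8.53 to 8.64 on the WT DN3 arrays. Of the 7, the recombinase genes Rag1 and Rag2 fell in lymphomas against WT DN3, with differences of -1.92 and -1.39 (limma adjusted p = 0.00824 and 0.0197), Dtx1 rose by 0.92 (limma adjusted p = 7.69e-05), and Il2ra, Ptcra, Cd3e and Notch1 did not pass the test. A list of 8 genes for cells past beta-selection, of which 7 had a row, had a mean level of 8.23 to 8.48 on the lymphoma arrays, 7.69 to 7.91 on the KO DN3 arrays and 6.58 to 6.89 on the WT DN3 arrays. In KO DN3 against WT DN3 its largest differences were those of Cd2 (3.94) and Ikzf3 (1.89), the other 5 differing by 0.18 to 0.63. Earlier progenitor genes averaged 5.02 to 5.23 on the lymphoma arrays. They averaged 5.25 to 5.50 on the KO DN3 and 5.35 to 5.36 on the WT DN3 arrays. Of these, Kit differed from WT DN3 by -1.03 in lymphomas (limma adjusted p = 6.65e-05) and by -0.69 in KO DN3 (limma adjusted p = 0.0149). The rest were not called against WT DN3. A list for DP cells averaged 6.35 ± 0.28 in lymphomas (SD, n = 6), 6.51 ± 0.0064 in KO DN3 (n = 3) and 5.59 ± 0.15 in WT DN3 (n = 3). Cd8b1 was called higher in lymphomas and in KO DN3 than in WT DN3. Against WT DN3, Cd8a was called higher in KO DN3 (1.21, limma adjusted p = 0.00111) and uncalled in lymphomas (0.85). Cd4 had group means of 4.98 in lymphomas, 5.12 in KO DN3 and 4.99 in WT DN3. A gamma-delta T cell list averaged 6.09 to 7.04 on lymphoma arrays, 6.07 to 6.30 in KO DN3 and 5.78 to 5.90 in WT DN3. Of its genes, Cd163l1 was called higher in lymphomas and in KO DN3 than in WT DN3. Sox13, Zbtb16 and Blk were not called against WT DN3 in either group. B cell, myeloid, erythroid and stromal lists had means of 4.55 to 5.82 on every array, although the epithelial gene Krt8 stood at 5.87 to 6.60 in lymphomas, 6.29 to 7.07 in KO DN3 and 6.05 to 6.39 in WT DN3, and Epcam fell by 1.05 in lymphomas against WT DN3 (limma adjusted p = 0.000522). Rows without a gene name separated 2 array batches, unnamed in the labels, with lymphomas 1 and 2, KO DN3 replicate 1 and WT DN3 replicate 1 in the smaller. Xist was low on lymphomas 1, 2 and 6 and KO DN3 replicate 3 and high on the other arrays, so sex was not balanced. Bulk samples were measured, so fewer cycling cells and less RNA per cycling cell cannot be told apart, and the part of these cell markers in the levels below was not tested.

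The promoters of these genes are where E2F factors are known to act, so the RefSeq sequences (GRCm38.p6, 250 bases before to 50 after the annotated start) of 33 of the 40 genes were searched on both strands for the letters TTTGGCGC, TTTCGCGC, TTTCCCGC and TTTGCCGC. One or more of these 8-letter words stood in 13 of the 33 (39.4%), against 496 of 11812 tested genes with a promoter entry (4.2%). Their share was 16 of 49 (32.7%) in a wider replication list and 1 of 15 (6.7%) in a list of G2 and mitosis genes. CCAAT stood in 21 of the 33 (63.6%), in 41.4% of tested genes and in 93.3% of the G2 and mitosis genes. The words can overlap one another, as in Mcm6 and Mcm5, and a match is a run of letters and not a measured binding site. Shown first is E2f2, the only gene of the 40 called in 2 comparisons, followed by the 3 other genes with a word that had the lowest p among those described by array. Capitals mark the words. They are E2f2 (chr4:136172024-136172323, plus strand, word at base 40 after the start), Mcm7 (chr5:138171834-138172133, minus strand, words at 165 before and 17 after), Uhrf1 (chr17:56304063-56304362, plus strand, 185 before) and Cdt1 (chr8:122567765-122568064, plus strand, 33 after).
E2f2: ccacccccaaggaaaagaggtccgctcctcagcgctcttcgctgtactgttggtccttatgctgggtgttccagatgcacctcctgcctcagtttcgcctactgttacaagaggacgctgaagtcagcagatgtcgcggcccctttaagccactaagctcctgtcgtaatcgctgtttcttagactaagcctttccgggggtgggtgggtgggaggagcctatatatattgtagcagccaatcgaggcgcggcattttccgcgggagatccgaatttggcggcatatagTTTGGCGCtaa
Mcm7: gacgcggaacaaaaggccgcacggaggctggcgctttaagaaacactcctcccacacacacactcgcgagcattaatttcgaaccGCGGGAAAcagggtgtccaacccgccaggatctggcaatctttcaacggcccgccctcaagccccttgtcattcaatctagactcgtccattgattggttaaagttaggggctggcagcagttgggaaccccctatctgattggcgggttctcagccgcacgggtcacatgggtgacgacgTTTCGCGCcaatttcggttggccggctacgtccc
Uhrf1: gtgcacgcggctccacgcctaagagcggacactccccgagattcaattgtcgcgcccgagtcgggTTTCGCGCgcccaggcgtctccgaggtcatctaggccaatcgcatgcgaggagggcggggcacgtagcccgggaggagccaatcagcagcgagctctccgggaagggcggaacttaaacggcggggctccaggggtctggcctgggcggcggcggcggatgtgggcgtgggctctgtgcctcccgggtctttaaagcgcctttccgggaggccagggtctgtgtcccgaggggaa
Cdt1: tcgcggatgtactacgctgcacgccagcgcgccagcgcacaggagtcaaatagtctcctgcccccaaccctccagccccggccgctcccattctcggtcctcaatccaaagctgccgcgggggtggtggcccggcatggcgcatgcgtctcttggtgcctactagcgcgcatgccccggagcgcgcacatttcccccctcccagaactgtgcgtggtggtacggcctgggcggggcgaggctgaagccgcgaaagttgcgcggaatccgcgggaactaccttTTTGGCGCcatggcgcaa
E2f2, Mcm7 and Uhrf1 each have a second annotated promoter without a word, and the promoter of Dut, the other called gene, held none. A missing word says only that these letters are not in this window.

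Few of the 40 genes passed the test in any of the 3 comparisons. E2f2 was lower in lymphomas than in either DN3 group, and Dut, which encodes the enzyme that removes dUTP, was higher in lymphomas than in WT DN3. These were the only genes called, a call being a limma adjusted p under 0.05 over all genes tested. In lymphomas against WT DN3, 1 of the 40 was called higher, beside 2.96% of all genes, and 1 was called lower, beside 2.86%. In lymphomas against KO DN3, none was called higher, beside 4.5% of all genes, and 1 was called lower, beside 2.12%. In KO DN3 against WT DN3, limma called none higher, beside 0.568% of all genes, and none lower, beside 1.42%, while 7 of the 40 (17.5%) had an unadjusted p under 0.05, beside 16.3% of all genes. KO DN3 and WT DN3 arrays of the same number deviated together, and with the replicate number as a block 1 gene was called higher (Rrm2, beside 2.88% of all genes) and 1 lower (Ccne2, beside 6.35%). These shares of the 40 were within a few genes of the background.

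The 95% confidence intervals of the main fit, each for a single gene, show how precisely the differences were measured. All 40 intervals lay within 1 log2 unit of 0 in each comparison, as did those of 95.8% of all genes in lymphomas against WT DN3, 95.7% in lymphomas against KO DN3 and 97.7% in KO DN3 against WT DN3. Within 0.5 of 0 lay 25, 23 and 25 of the 40 in that order (62.5%, 57.5% and 62.5%), beside 79.6%, 67.3% and 63.3% of all genes. Smaller differences of the others could not be resolved. In the lymphoma comparisons fewer of the 40 than of all genes were bounded this tightly. With the replicate block, 38 of the 40 intervals lay within 1 of 0 in lymphomas against WT DN3, beside 95.8% of all genes. In the main fit the median difference of the 40 was -0.07 in lymphomas against WT DN3, with 26 below 0, beside -0.01 for all genes. It was -0.15 in lymphomas against KO DN3, with 33 below 0, beside -0.03 for all genes. In KO DN3 against WT DN3 it was 0.11, with 28 above 0, beside 0.03 for all genes. The comparisons share arrays, so their directions are not independent of each other.

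**Figure D1:**
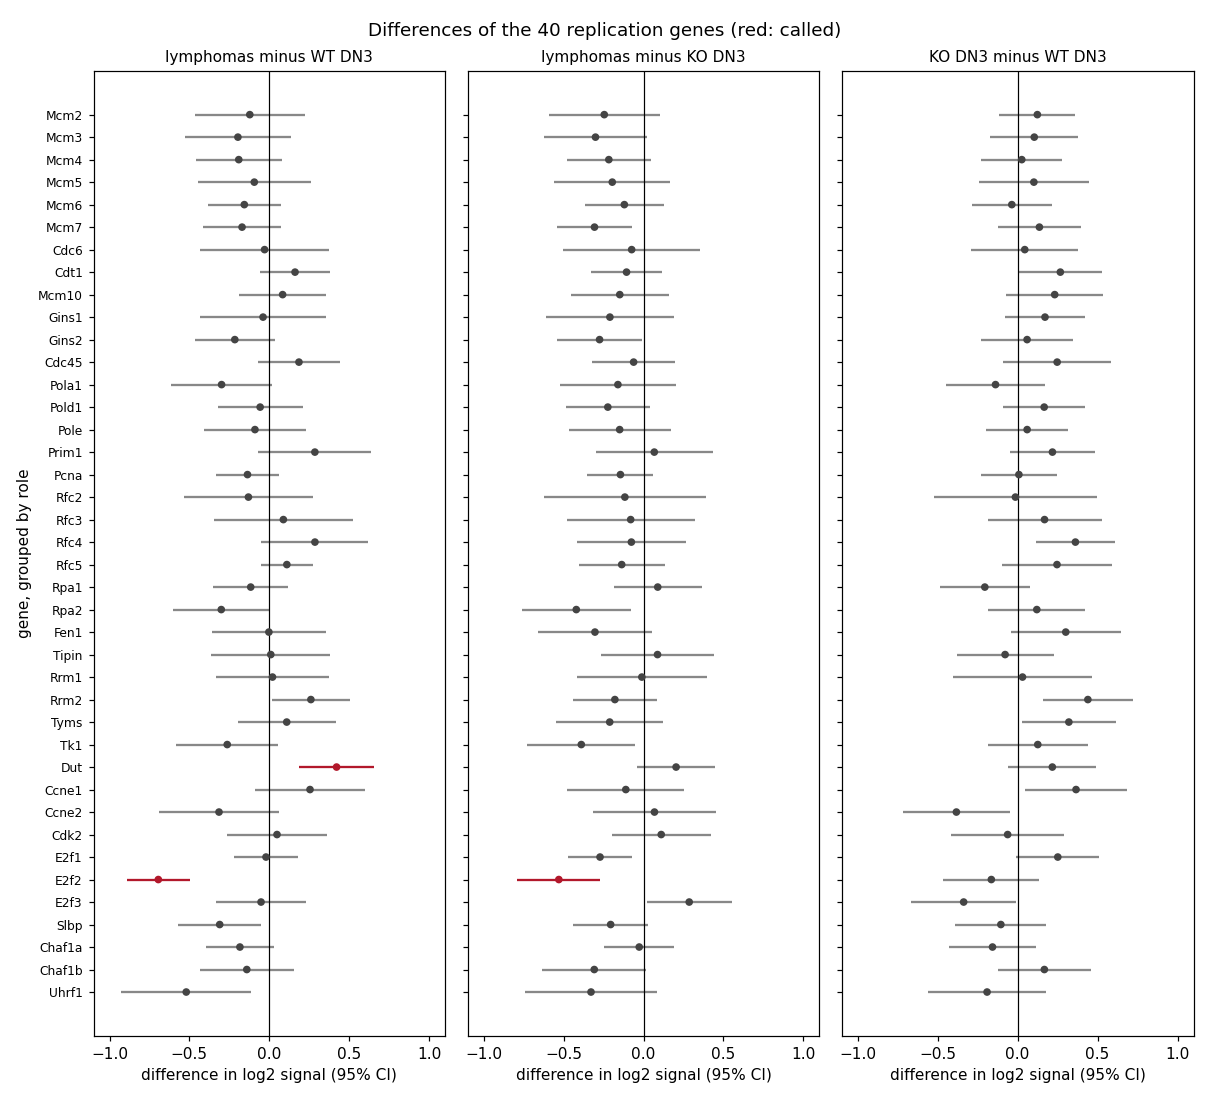
Difference in log2 signal of each of the 40 genes with its 95% confidence interval, for lymphomas minus WT DN3 (left), lymphomas minus KO DN3 (middle) and KO DN3 minus WT DN3 (right), with called genes in red. Only Dut and E2f2 are red on the left and E2f2 in the middle, and every interval stays between -1 and 1.

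The arrays of a pair of groups were fully separate for few of the 40 genes. Lymphoma and WT DN3 arrays did not overlap for Dut, higher in lymphomas (1 of 40, beside 5.28% of all genes), and for E2f2, lower (1 of 40, beside 5.04%). Against KO DN3 none was higher on every lymphoma array (beside 7.34%), and Mcm7, E2f1 and E2f2 were lower on every one (3 of 40, beside 6.23%). Between DN3 groups, 8 of the 40 were higher on every KO DN3 array, beside 10.4% of all genes, namely Mcm2, Cdt1, Gins1, Rrm2, Tyms, Pold1, Rfc4 and E2f1. None of the 40 was lower on every KO DN3 array, beside 11.6% of all genes.

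**Figure D2:**
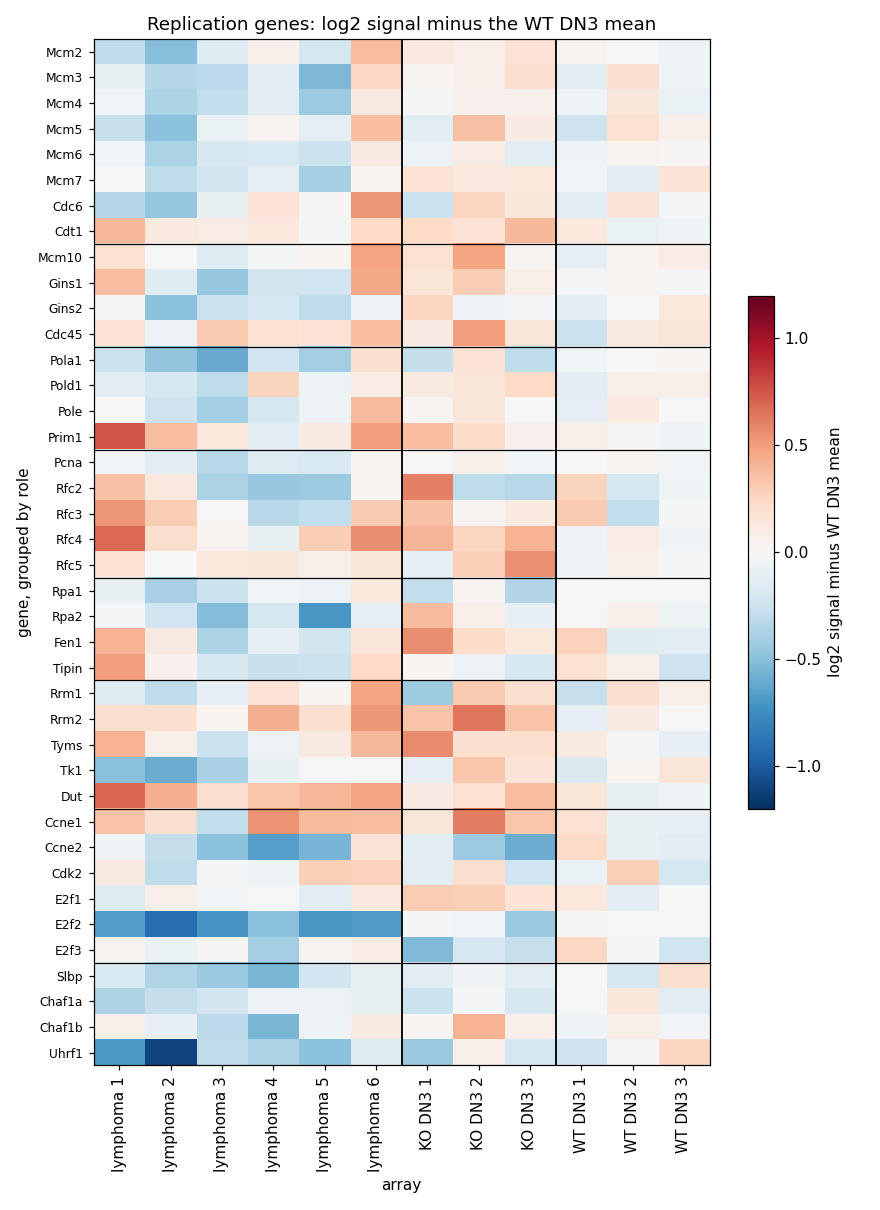
Log2 signal of each of the 40 genes (rows, grouped by role) on each array (columns, lymphomas, then KO DN3, then WT DN3) minus the mean of the WT DN3 arrays. Lymphoma 6 is red for most genes and lymphomas 2 and 3 are blue for most, while E2f2 is blue on all 6 lymphomas.

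Among the licensing genes no member was called. The 8 differences of lymphomas from KO DN3 were all below 0, with a median of -0.21, and those of KO DN3 from WT DN3 had a median of 0.10, with Mcm6 the one below 0. Mcm7, a subunit of the helicase ring, stood at 7.26 (lowest), 7.49 (median) and 7.68 (highest) in lymphomas, at 7.82, 7.78 and 7.78 in KO DN3 and at 7.63, 7.53 and 7.82 in WT DN3. Every lymphoma lay below every KO DN3 array, and lymphomas and WT DN3 overlapped. Lymphomas minus KO DN3 came to -0.31 (95% CI -0.54 to -0.08, limma adjusted p = 0.104), and the same was -0.32 in the smaller batch and -0.30 in the larger. Cdt1, which loads the ring together with Cdc6, stood at 5.52, 5.65 and 5.93 (lowest, median, highest) in lymphomas, at 5.77, 5.71 and 5.92 in KO DN3 and at 5.66, 5.45 and 5.48 in WT DN3. All KO DN3 arrays lay above all WT DN3 arrays, with the lymphomas spread over both. The KO DN3 minus WT DN3 difference was 0.27 (95% CI 0.01 to 0.53, limma adjusted p = 0.296).

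Cdc6, the loading ATPase, was among the 3 genes of the 40 with the largest SD in lymphomas, with 6.44, 6.86 and 7.43 as the lowest, median and highest level. It stood at 6.64, 7.16 and 7.03 in KO DN3 and at 6.76, 7.05 and 6.88 in WT DN3. The lymphomas reached both below and above all DN3 arrays, and its 2 lowest lymphomas were those of the smaller batch. For Mcm2 to Mcm6 the differences lay between -0.20 and -0.09 for lymphomas minus WT DN3, between -0.30 and -0.12 for lymphomas minus KO DN3 and between -0.04 and 0.12 for KO DN3 minus WT DN3.

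Among the 4 genes that switch the helicase on, none was called, and all 4 differences of KO DN3 from WT DN3 lay above 0 (0.06 to 0.25). Mcm10, which helps the loaded helicase start, stood at 6.51, 6.67 and 7.13 (lowest, median, highest) in lymphomas, at 6.84, 7.14 and 6.70 in KO DN3 and at 6.54, 6.70 and 6.75 in WT DN3. Lymphoma 6 was close to the highest KO DN3 array and the other lymphomas lay among the DN3 arrays or just under them. Gins1, a subunit of GINS, stood at 7.22, 7.49 and 8.13 in lymphomas, at 7.81, 7.96 and 7.75 in KO DN3 and at 7.66, 7.70 and 7.65 in WT DN3. Lymphomas 1 and 6 exceeded all DN3 arrays and the other 4 lay below all of them, which gave Gins1 the largest lymphoma SD of the 40 (0.36). Its KO DN3 arrays all lay above its WT DN3 arrays, by 0.17 on average (95% CI -0.08 to 0.42, limma adjusted p = 0.474).

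Gins2, another GINS subunit, was at 6.99, 7.25 and 7.50 in lymphomas, at 7.74, 7.41 and 7.47 in KO DN3 and at 7.36, 7.48 and 7.61 in WT DN3. Only lymphomas 1 and 6 reached the DN3 range. The lymphoma minus KO DN3 difference was -0.28 (95% CI -0.54 to -0.01, limma adjusted p = 0.193). Cdc45, the helicase cofactor, differed by 0.19, -0.06 and 0.25 for lymphomas minus WT DN3, lymphomas minus KO DN3 and KO DN3 minus WT DN3.

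Of the polymerase and primase genes none was called. Pola1, the catalytic subunit of the polymerase that extends primers, stood at 7.90, 8.18 and 8.70 (lowest, median, highest) in lymphomas, at 8.22, 8.68 and 8.21 in KO DN3 and at 8.48, 8.52 and 8.54 in WT DN3. Lymphoma 6 was the highest of the 12 arrays and the other 5 lymphomas lay under all WT DN3 arrays. The lymphoma minus WT DN3 difference was -0.30 (95% CI -0.62 to 0.02, limma adjusted p = 0.366). Without lymphoma 6 it was -0.40 and passed (limma adjusted p = 0.0464), and over all alternatives the adjusted p ran from 0.0464 to 0.626.

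Pold1, the catalytic subunit of the polymerase that copies the lagging strand, was at 6.08, 6.29 and 6.65 in lymphomas, at 6.49, 6.53 and 6.62 in KO DN3 and at 6.24, 6.45 and 6.45 in WT DN3. KO DN3 arrays lay just above WT DN3 arrays and the lymphomas covered both. Lymphomas minus KO DN3 came to -0.22 (95% CI -0.49 to 0.04, limma adjusted p = 0.279). Pole, of the leading strand polymerase, and Prim1, the primase subunit, differed from WT DN3 by -0.09 and 0.28 in lymphomas.

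The sliding clamp and its loader likewise gave no call. Rfc4, a loader subunit, stood at 7.13, 7.47 and 7.90 (lowest, median, highest) in lymphomas, at 7.63, 7.47 and 7.63 in KO DN3 and at 7.18, 7.30 and 7.17 in WT DN3. All KO DN3 arrays exceeded all WT DN3 arrays, and lymphomas lay from below WT DN3 to above KO DN3. KO DN3 minus WT DN3 was 0.36 (95% CI 0.11 to 0.61, limma adjusted p = 0.148). Within the smaller batch it was 0.45 and within the larger 0.32, and the replicate block left it uncalled (limma adjusted p = 0.0554, alternatives 0.0554 to 0.359). Rfc5, another loader subunit, stood at 7.12, 7.25 and 7.30 in lymphomas, at 7.02, 7.40 and 7.67 in KO DN3 and at 7.07, 7.19 and 7.09 in WT DN3, so that the KO DN3 arrays spread more widely than the lymphomas.

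Rfc3, another loader subunit, varied with batch. The lymphomas stood at 7.77, 8.25 and 8.63, KO DN3 at 8.46, 8.13 and 8.22 and WT DN3 at 8.42, 7.80 and 8.08. Replicate 1 was the highest array in each group. Pcna, the clamp itself, had differences of -0.14 for lymphomas minus WT DN3 and -0.14 for lymphomas minus KO DN3. For KO DN3 minus WT DN3 its difference was 0.01. Of 10 neighbours of the row used, 9 belonged to chromosome 19, while Pcna lies on chromosome 2. Its second array row, with all 10 neighbours on chromosome 2, gave values within 0.03 of the first.

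Single-strand binding, flap removal and fork protection genes were uncalled in every comparison. Rpa2, the middle subunit of the single-strand binding protein, stood at 6.14, 6.62 and 6.82 (lowest, median, highest) in lymphomas, at 7.22, 6.92 and 6.74 in KO DN3 and at 6.84, 6.90 and 6.78 in WT DN3. Only lymphoma 1 reached the DN3 range. Lymphomas minus KO DN3 came to -0.42 (95% CI -0.76 to -0.08, limma adjusted p = 0.123) and lymphomas minus WT DN3 to -0.30 (95% CI -0.60 to 0.00, limma adjusted p = 0.322). Fen1, the nuclease that trims Okazaki fragments, was at 5.63, 6.01 and 6.43 in lymphomas, at 6.57, 6.22 and 6.13 in KO DN3 and at 6.28, 5.86 and 5.88 in WT DN3. Replicate 1 was again the highest in each group, and KO DN3 minus WT DN3 was 0.30 (95% CI -0.04 to 0.65, limma adjusted p = 0.367). Rpa1 and Tipin, a partner of Timeless at the fork, differed by -0.12 and 0.01 between lymphomas and WT DN3.

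Nucleotide supply held the one gene called higher. Dut stood at 7.84, 8.06 and 8.33 (lowest, median, highest) in lymphomas, at 7.74, 7.83 and 8.01 in KO DN3 and at 7.79, 7.55 and 7.59 in WT DN3. Every lymphoma lay above every WT DN3 array, and KO DN3 lay between and overlapped both. Lymphomas averaged 8.07 ± 0.16 (SD, n = 6) and WT DN3 averaged 7.65 ± 0.13 (SD, n = 3), so Dut rose by 0.42 (SE 0.11, 95% CI 0.18 to 0.66, limma adjusted p = 0.041), a 1.34-fold higher signal. The difference was 0.42 within each batch. The call was close to the threshold: the adjusted p from limma was 0.055, 0.191 and 0.17 without WT DN3 replicates 1, 2 and 3, and 0.0729, 0.0718 and 0.0737 without lymphomas 2, 5 and 6. With the Xist class as a term it was 0.149, and over all alternatives it ran from 0.0116 to 0.191.

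Rrm2, the small subunit of ribonucleotide reductase that sets the deoxynucleotide supply in S phase, was the gene of the 40 with the lowest p between the DN3 groups. It stood at 8.91, 9.21 and 8.91 in KO DN3 and at 8.46, 8.68 and 8.57 in WT DN3, while the lymphomas had 8.59, 8.77 and 9.09 as the lowest, median and highest. All KO DN3 arrays lay above all WT DN3 arrays, and lymphomas overlapped both. The KO DN3 minus WT DN3 difference was 0.44 (95% CI 0.16 to 0.72, limma adjusted p = 0.12), with 0.45 in the smaller and 0.43 in the larger batch. It passed with the replicate block (limma adjusted p = 0.0205) and with batch as a term (limma adjusted p = 0.0492), and the alternatives ran from 0.0205 to 0.323.

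Rrm1, the large subunit, differed by 0.02, -0.01 and 0.03 for lymphomas minus WT DN3, lymphomas minus KO DN3 and KO DN3 minus WT DN3. Tyms, thymidylate synthase, was higher on every KO DN3 array (8.06, 7.69 and 7.70) than on any WT DN3 array (7.60, 7.49 and 7.40), with a difference of 0.32 (limma adjusted p = 0.27). Tk1, the salvage thymidine kinase, had 2 array rows that disagreed. On the brighter row, used here, lymphomas minus WT DN3 was -0.26 and lymphomas minus KO DN3 was -0.39, and the second passed with batch as a term (limma adjusted p = 0.0317, alternatives 0.0317 to 0.335). The dimmer row gave 0.08 and -0.08. The neighbouring row identifiers of the brighter row belonged to genes of chromosome 8 and those of the dimmer row to chromosome 11, where Tk1 lies, so the brighter row is an uncertain measure of Tk1.

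**Figure D3:**
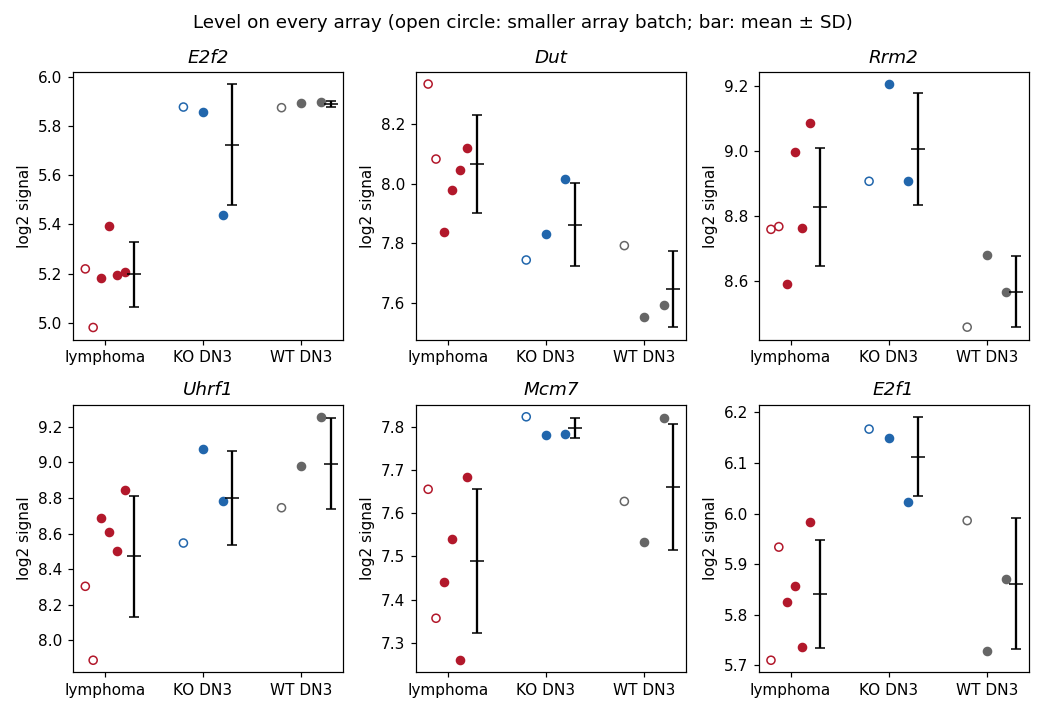
Log2 signal of E2f2, Dut, Rrm2, Uhrf1, Mcm7 and E2f1 on every array of the lymphomas, KO DN3 and WT DN3, with open circles for the smaller array batch and bars for the group mean and SD. All 6 lymphomas lie at 5.39 or lower for E2f2 and all 3 WT DN3 arrays at 5.88 or higher, and for Rrm2 all KO DN3 arrays lie above all WT DN3 arrays.

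The G1/S control genes held the largest difference of the 40. E2f2, one of the activating E2F factors and a regulator of T cell proliferation in mice, stood at 4.98, 5.20 and 5.39 (lowest, median, highest) in lymphomas, at 5.88, 5.86 and 5.44 in KO DN3 and at 5.88, 5.90 and 5.90 in WT DN3. No lymphoma reached any DN3 array, and KO DN3 replicate 3 lay apart from the other DN3 arrays, close to the highest lymphoma. The mean was 5.20 ± 0.13 (SD, n = 6) in lymphomas and 5.89 ± 0.01 (SD, n = 3) in WT DN3. E2f2 thus fell by 0.69 (SE 0.09, 95% CI -0.89 to -0.50, limma adjusted p = 0.000489), to 0.618 of the WT DN3 signal. The adjusted p of this difference ran from 0.0003 to 0.00484 over the alternatives, and the difference was -0.78 in the smaller and -0.65 in the larger batch. Lymphoma levels of E2f2 were near the filter on dim signals (4.78), where arrays understate differences.

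Against KO DN3, whose mean was 5.73 ± 0.25 (SD, n = 3), E2f2 fell by 0.53 (95% CI -0.79 to -0.27, limma adjusted p = 0.0216), with -0.78 in the smaller and -0.40 in the larger batch. This call was lost without KO DN3 replicate 1 (limma adjusted p = 0.0989) and without KO DN3 replicate 2 (limma adjusted p = 0.0597), and the alternatives ran from 0.00797 to 0.0989. KO DN3 minus WT DN3 was -0.16 (95% CI -0.47 to 0.14, limma adjusted p = 0.578).

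E2f1, the factor best known for driving S-phase entry, stood at 5.71, 5.84 and 5.98 (lowest, median, highest) in lymphomas, at 6.17, 6.15 and 6.02 in KO DN3 and at 5.99, 5.73 and 5.87 in WT DN3. KO DN3 lay above every lymphoma and every WT DN3 array, while lymphomas and WT DN3 overlapped. Lymphomas minus KO DN3 came to -0.27 (95% CI -0.47 to -0.07, limma adjusted p = 0.095) and KO DN3 minus WT DN3 to 0.25 (95% CI -0.01 to 0.51, limma adjusted p = 0.324). E2f3, the third activator, differed by -0.34 between KO DN3 and WT DN3 on the row used and by -0.25 on its dimmer second row, and was uncalled.

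By group means the E cyclins, which activate Cdk2, differed in opposite directions between the DN3 groups. Ccne1 stood at 6.33, 6.81 and 6.52 in KO DN3 and at 6.37, 6.10 and 6.09 in WT DN3. Its difference was 0.37 and uncalled (limma adjusted p = 0.247), with -0.04 in the smaller batch and 0.57 in the larger. Ccne2 was at 6.93, 6.62 and 6.46 in KO DN3 and at 7.28, 6.96 and 6.91 in WT DN3 (difference -0.38). Within each replicate number Ccne2 was lower in KO DN3, and it passed with the replicate block (limma adjusted p = 0.0365) but not without it (0.241, alternatives 0.0365 to 0.552). It was named after its values were seen. Cdk2 differed by 0.05 for lymphomas minus WT DN3, by 0.11 for lymphomas minus KO DN3 and by -0.06 for KO DN3 minus WT DN3. Whether the 2 cyclins differed from each other was not tested.

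Chromatin assembly and histone mRNA genes had differences below 0 in all 4 members for lymphomas against either DN3 group, and none was called. Uhrf1, which brings the maintenance DNA methyltransferase to newly copied DNA, stood at 7.89, 8.56 and 8.85 (lowest, median, highest) in lymphomas, at 8.55, 9.07 and 8.79 in KO DN3 and at 8.74, 8.98 and 9.26 in WT DN3. Lymphoma 6 was the one lymphoma above the lowest WT DN3 array, and the 2 lymphomas of the smaller batch were the lowest of all. Lymphomas minus WT DN3 came to -0.52 (95% CI -0.93 to -0.11, limma adjusted p = 0.171). With batch as a term it passed (limma adjusted p = 0.0176, alternatives 0.0176 to 0.542), and it was -0.65 in the smaller and -0.46 in the larger batch.

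Slbp, which binds the stem-loop of histone mRNAs, stood at 7.63, 7.88 and 8.08 in lymphomas, at 8.04, 8.13 and 8.04 in KO DN3 and at 8.18, 7.96 and 8.38 in WT DN3. Lymphoma 6 was the one lymphoma within the KO DN3 range. The lymphoma minus WT DN3 difference of Slbp was -0.31 (95% CI -0.57 to -0.05, limma adjusted p = 0.209), and a second row for the gene gave -0.28. The rows disagreed in sign for KO DN3 minus WT DN3, at -0.11 on the row used and 0.17 on the second. Lymphomas minus KO DN3 came to -0.21 and -0.46 in that order. Of 10 neighbours of the second row, 5 belonged to chromosome 14, while Slbp lies on chromosome 5. Chaf1a and Chaf1b, subunits of the factor that deposits histones behind the fork, differed from WT DN3 by -0.18 and -0.14 in lymphomas and by -0.16 and 0.17 in KO DN3.

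The 6 lymphomas were spread widely in these genes. Averaged over the 40 genes and set against the WT DN3 mean, lymphomas 1 to 6 stood at 0.05, -0.18, -0.21, -0.10, -0.13 and 0.19, KO DN3 replicates at 0.05, 0.15 and 0.03, and WT DN3 replicates at -0.00, 0.02 and -0.01. Lymphomas 2 to 5 lay below every DN3 array and lymphoma 6 above every one. The median SD of the 40 genes was 0.254 in lymphomas, beside 0.153 for all genes, 0.175 in KO DN3, beside 0.162, and 0.128 in WT DN3, beside 0.126. Without lymphoma 6 it was 0.186 beside 0.149, and among the 4 lymphomas of the larger batch 0.230 beside 0.136, both computed after seeing the data.

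Counted gene by gene against the range of the 3 WT DN3 arrays, lymphoma 6 leaned upward and lymphomas 2 to 5 downward, while lymphoma 1 stood near the shares of all genes. Lymphoma 1 had 15 of the 40 above that range, beside 30.7% of all genes, and 10 below it, beside 30.5%. Lymphoma 2 had 5 above, beside 28% of all genes, and 24 below, beside 27.9%. Lymphoma 3 had 4 above, beside 26.8%, and 25 below, beside 29.2%. In both tumours Mcm2, Mcm3, Mcm4, Mcm6, Mcm7, Pola1, Pold1 and Pole were among those below. Lymphoma 4 had 9 above, beside 28.6%, and 21 below, beside 31.5%. Lymphoma 5 had 7 above, beside 27%, and 19 below, beside 27.7%. Lymphoma 6 had 24 above, beside 26.1%, and 2 below, beside 30.1%, and those 2 were Rpa2 and E2f2.

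Lymphoma 6, singled out after its values were seen, exceeded the mean of the other 5 lymphomas in all 40 genes, by 0.01 to 0.67 with a median of 0.28, while the median over all genes was -0.02. It was the highest of all 6 for 23 of the 40 (57.5%), beside 14.4% of all genes, and lymphoma 1 was for 12, beside 20.6%. Against the other 3 lymphomas of its own batch lymphoma 6 was the highest for 34 of the 40 (85.0%), beside 26.9% of all genes. The exceptions were Pold1, Rfc5, Ccne1, Cdk2, E2f2 and Chaf1a. The same tumour was the highest of its batch for 49 of 58 genes of the wider replication list and for 14 of 17 G2 and mitosis genes. On the DN3 marker list its mean stood 0.00 from the WT DN3 mean, against -0.78 to -0.36 in the other lymphomas. That mean joined opposite differences. Rag1 stood at 9.63 in lymphoma 6, beside a WT DN3 mean of 10.39, and Il2ra, Ptcra, Rag2 and Notch1 also lay below their WT DN3 means. Cd3e stood at 10.73, beside 10.11, and Dtx1 at 7.45, beside 6.65. The part of these markers in the replication genes was not tested.

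**Figure D4:**
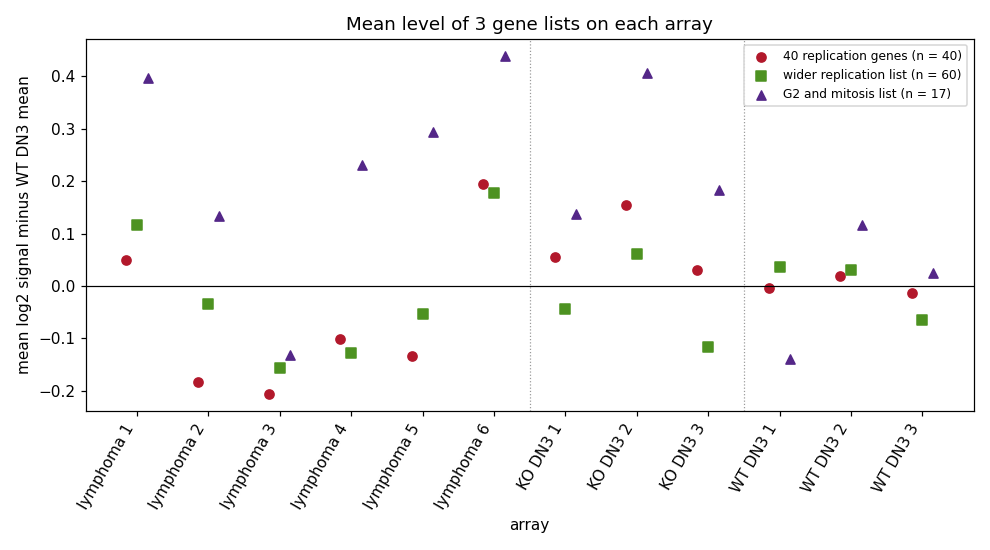
Mean log2 signal minus the WT DN3 mean on each array (lymphomas, then KO DN3, then WT DN3) for the 40 replication genes, a wider replication list of 60 measured genes and a list of 17 G2 and mitosis genes. The 40 genes run from -0.21 in lymphoma 3 to 0.19 in lymphoma 6, and the G2 and mitosis genes lie above 0 on every lymphoma array but lymphoma 3.

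The genes also moved together from array to array. After group means were removed, the median correlation over the 780 pairs of the 40 genes was 0.33 across the 12 arrays, with 80.3% of pairs positive, beside 0.00 and 50.1% for pairs from 2000 sampled genes. Within the 6 lymphomas the median was 0.47. With batch means removed too it was 0.55 over the 10 arrays that share group and batch with another. Arrays share RNA amplification and cell composition, so these values describe the arrays and carry no test. Among the lymphomas, Mcm10 (0.96), Gins1 (0.94), Pole (0.93) and Pola1 (0.93) followed the mean of the other 39 most closely, while Chaf1a (0.06), E2f1 (0.22), E2f2 (0.23) and E2f3 (0.31) followed it least.

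Several of these genes differed between the array batches. In 1 limma fit to all 12 arrays with group and batch as terms, 3 of the 40 were called higher in the smaller batch, beside 7.3% of all genes, and 5 lower, beside 4.92%. Rfc2, a clamp loader subunit, stood at 7.48 to 7.96 in the smaller batch and at 6.90 to 7.39 in the larger, a difference of 0.60 (limma adjusted p = 0.00307). Rfc3 and Fen1 were higher too, by 0.44 and 0.40. Rrm1 stood at 8.64 to 8.92 in the smaller batch and at 8.98 to 9.55 in the larger, a difference of -0.46 (limma adjusted p = 0.00929). Mcm5, Cdc6, Tk1 and Uhrf1 were lower by 0.37 to 0.47. Over all 12 arrays the 2 batches did not overlap for Rfc2, Rrm1, Cdc6 and Mcm5. What the batches are is not given by the labels, and each batch held the same share of every group.

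**Figure D5:**
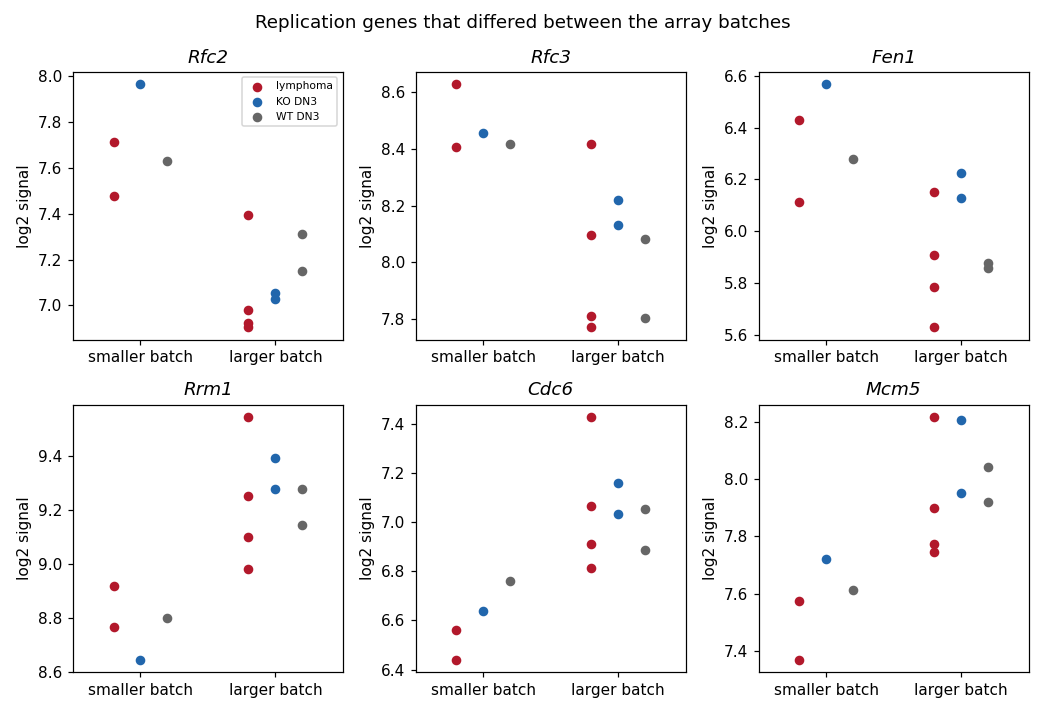
Log2 signal of Rfc2, Rfc3, Fen1, Rrm1, Cdc6 and Mcm5 on the 4 arrays of the smaller and the 8 arrays of the larger batch, coloured by group. The batches are separate for Rfc2 (7.48 to 7.96 against 6.90 to 7.39), Rrm1, Cdc6 and Mcm5, whichever group an array belongs to.

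A wider list of 62 replication, nucleotide and E2F pathway genes outside the 40 had 58 tested. The others were not tested, including Samhd1 and E2f5, which were under the filter. Lymphomas against WT DN3 gave 2 higher, beside 2.96% of all genes, and none lower, beside 2.86%. Lymphomas against KO DN3 gave 2 higher, beside 4.5%, and 1 lower, beside 2.12%, and KO DN3 against WT DN3 gave none higher, beside 0.568%, and 1 lower, beside 1.42%. These counts were within a few genes of the background. Tfdp2, a partner protein that E2F factors need to bind DNA, stood at 7.32, 7.74 and 7.97 (lowest, median, highest) in lymphomas, at 6.63, 7.03 and 6.72 in KO DN3 and at 7.49, 7.70 and 7.36 in WT DN3. KO DN3 lay below every other array, and lymphomas and WT DN3 overlapped. Tfdp2 rose by 0.91 in lymphomas against KO DN3 (limma adjusted p = 0.00378) and fell by 0.72 in KO DN3 against WT DN3 (limma adjusted p = 0.0295). The second call was lost without any one WT DN3 replicate (limma adjusted p = 0.0868, 0.171 and 0.0582 for replicates 1, 2 and 3) or without KO DN3 replicate 1 (0.0616) or 3 (0.14), and it was 0.0015 with the replicate block.

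Orc5, a subunit of the origin recognition complex, stood at 5.84, 6.10 and 6.24 in lymphomas, at 5.50, 5.37 and 5.77 in KO DN3 and at 5.69, 5.67 and 5.68 in WT DN3, with every lymphoma above every DN3 array. It rose by 0.38 against WT DN3 (limma adjusted p = 0.0294, alternatives 0.0127 to 0.117) and by 0.52 against KO DN3 (limma adjusted p = 0.0196, alternatives 0.00712 to 0.0782). Wdhd1, a link between helicase and primase, rose by 0.41 in lymphomas against WT DN3 (limma adjusted p = 0.0473, alternatives 0.00536 to 0.25). E2f7, a repressor of E2F targets, stood at 5.96, 6.23 and 6.31 in lymphomas, at 6.51, 6.65 and 6.55 in KO DN3 and at 5.97, 6.18 and 6.19 in WT DN3. KO DN3 lay above all other arrays. E2f7 fell by 0.40 in lymphomas against KO DN3 (limma adjusted p = 0.0317, alternatives 0.00816 to 0.106), and its KO DN3 minus WT DN3 difference of 0.46 was called with the replicate block (limma adjusted p = 0.017) and not without it (0.0827, alternatives 0.017 to 0.28). Leaving out any one WT DN3 replicate lost the calls of Orc5 and Wdhd1 against WT DN3, as did leaving out lymphoma 2, 4 or 6 for Orc5 and lymphoma 3, 4, 5 or 6 for Wdhd1. Against KO DN3, Orc5 was lost without KO DN3 replicate 1 or 2, and E2f7 without any one KO DN3 replicate or lymphoma 1 or 2.

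G2 and mitosis genes gave a different split of signs from the 40. All 17 tested differences lay above 0 for lymphomas against WT DN3 (median 0.24) and for KO DN3 against WT DN3 (median 0.20). For lymphomas against KO DN3, 8 of 17 lay above 0. Of all genes, 48.3%, 55.3% and 43.5% lay above 0 in that order. None of the 17 was called by limma. An unadjusted p under 0.05 was found for 5 of 17 in lymphomas against WT DN3, beside 15.5% of all genes. It was found for 5 of 17 in KO DN3 against WT DN3 (beside 16.3%) and 1 of 17 in lymphomas against KO DN3 (beside 24.7%). The first pair of comparisons share the WT DN3 arrays. With the replicate block 4 of the 17 were called higher in KO DN3, beside 2.88% of all genes, namely Ccnb2, Aurkb, Bub1 and Birc5. For lymphomas against WT DN3 the block left 14 of 17 above 0 (median 0.14), beside 49.2% of all genes. There 0 of 17 had an unadjusted p under 0.05, beside 17.5% of all genes. Bub1, a spindle checkpoint kinase, stood at 7.54, 7.98 and 7.94 in KO DN3 and at 7.08, 7.30 and 7.40 in WT DN3, a difference of 0.56 (limma adjusted p = 0.0901 without the block and 0.00691 with it, alternatives 0.00691 to 0.304). Whether the 2 lists differed from each other was not tested.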

How the data were processed

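Total RNA was amplified and hybridised to 12 arrays, and the authors deposited log2 signals. The submitters' processing notes name RMA and Partek. Their versions, settings and log base are not given in the sources used, and base 2 was taken from the range of the values. RMA brings the probe signals of all arrays to 1 distribution, so differences are relative to other genes. The deposited row values still had array medians of 5.30 (lymphoma 6) to 5.39 (KO DN3 replicate 3). Of 35556 rows, 21789 had 1 gene symbol, and the brightest row stood for a gene. Genes whose mean level was below the 25th percentile, log2 4.78, were dropped.

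Each comparison was fitted on its pair of groups with limma 3.58.1 in R 4.3.3 (lmFit, eBayes, two-sided), adjusted over 14953 genes by Benjamini-Hochberg and tested on simulated data. Every adjusted p in the text is from limma. Replicates are labelled biological, and p-values measure only how much these samples vary. The 40 genes, the lists and the tests were chosen with earlier results of these data known. Array values are given for called genes, the 2 genes of each role with the lowest p and the 3 with the largest lymphoma SD. Other genes given by array, such as Tyms, Ccne1, Ccne2 and Bub1, were chosen after their values were seen.

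Batches were read from 34 unnamed rows that set arrays apart by 1 log2 unit or more (27 for the next such split). Same-numbered KO DN3 and WT DN3 arrays had deviations correlated at 0.51, 0.42 and 0.25, although number 1 is also a batch. They were taken as pairs in the replicate block only, and the main fit is unpaired. Lymphomas 1, 2 and 3 gave 0.44, -0.22 and 0.15 with the same-numbered WT DN3 array. With the same-numbered KO DN3 array they gave 0.38, -0.26 and 0.11. Lymphoma numbers were not read as pairs. The alternatives were 2 other scalings, 2 other filters, averaged rows, 1 joint fit, a robust trended variance, the replicate, batch or Xist class as a term, and leaving out each array. With the replicate as a term, lymphoma differences rest on lymphomas 1, 2 and 3, the only ones that share a number with DN3 arrays. The level of the deleted gene is not reported here.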

Additional observations from a re-analysis of the deposited data

Results flagged for a closer look

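E2f3 in the 6 lymphomas had 1 sample far from the others: lymphoma 4 stood at 6.47 and the other 5 at 6.79 to 6.96, so the gap took 0.658 of the whole range. This was 1 of the 40 genes (2.5%), beside 5.9% of all genes tested, and chance alone sets apart about 1 group in 20.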

How the results depend on the processing

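The number of genes called in KO DN3 against WT DN3 was 298 (71.5% lower), and it was 1380 with the replicate block, 754 with batch as a term, 126 with the Xist class as a term and 57 to 443 with 1 array left out (122, 57 and 154 without WT DN3 replicates 1, 2 and 3 and 126 without KO DN3 replicate 3). In KO DN3 against WT DN3 only KO DN3 replicate 3 was low in Xist, so the Xist term acted as leaving that array out. Lymphomas against WT DN3 gave 871, and 560 to 872 with 1 array left out. Lymphomas against KO DN3 gave 990 (32.0% lower), 1702 with batch as a term and 431 to 1361 with 1 array left out (457 and 431 without KO DN3 replicates 1 and 3). Repeated quantile normalisation gave 60.7% lower in KO DN3 against WT DN3, and median-centring gave 17.6% lower in lymphomas against KO DN3. Of the 40 genes in KO DN3 against WT DN3, 1 was called higher with the block (Rrm2) and 1 with batch as a term, and 1 was called lower with the block (Ccne2). In lymphomas against WT DN3, the 1 called higher became 0 under a trended robust variance (Dut, adjusted p = 0.0534), the replicate block (0.062) or the Xist class, and 0 to 1 with 1 array left out. The 1 called lower became 3 with the replicate block (E2f2, Tk1 and Uhrf1), 2 with batch as a term, 3 with the Xist class (E2f2, Ccne2 and Rpa2), and 1 to 2 with 1 array left out (2 without lymphoma 6, Pola1 added). In lymphomas against KO DN3 the 1 called lower became 3 with repeated quantile normalisation (Mcm7 and Slbp added), 2 with the replicate block or batch as a term (Tk1 added), and 0 to 1 with 1 array left out. The replicate numbers of the lymphomas were not taken to pair them with DN3 arrays. No DN3 array has the number of lymphoma 4, 5 or 6. With the block the lymphoma differences therefore rested on lymphomas 1, 2 and 3 alone. Median-centring left 1 gene of lymphoma 6 below the WT DN3 range in place of 2. Of 1026 alternative values of the 19 genes that the naming rule picked, 1007 stayed called or uncalled as before. Of the rest, 11 lost a call and 8 gained one, and 0 calls reversed direction. The sign of uncalled differences was not always kept. For lymphomas minus KO DN3, Rfc3 stood at -0.08 in the main fit and at 0.11 with the replicate block. The cause of these changes was not tested. Signals near the filter, such as E2f2 in lymphomas, limit the size of differences that can be seen.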
